A study of Mus musculus with 4 samples.

Results

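CpG-poor promoters of protein-coding genes are described here as accessible chromatin regions (FAIRE-positive regions) in mouse mammary epithelial cells. The peaks of 4 FAIRE-seq libraries were merged into regions wherever they overlapped by at least 1 bp. A region was a member if it lay on an autosome, if its middle was within 2 kb of a transcription start site (TSS) whose gene is protein-coding, and if the 500 bp around its middle had a GC content below 50% or a CpG observed/expected ratio below 0.6. By this rule 2885 of 35433 autosomal regions were members, beside 6400 CpG-rich promoter regions of protein-coding genes, 2304 promoter regions of other genes and 23844 regions farther than 2 kb from any TSS, called distal below. The members were nearest to the TSSs of 2528 genes.

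FAIRE-seq sequences the DNA that is left free of protein after formaldehyde crosslinking and shearing, and so maps open chromatin. The cells were EpRas, a derivative of the EpH4 mammary gland epithelial line that carries active H-Ras, and all 4 libraries were prepared at day 4. Cells with a control siRNA (siControl) were left untreated or given TGF-β3 at 1 ng/ml, and cells with either of 2 siRNA pairs against the ETS factor genes Etv4 and Etv5 (siEtv4/5 set 1 and set 2) were given TGF-β3 as well, so active Ras is common to all groups and no knockdown without TGF-β is among them. The comparisons ask which accessible regions depend on TGF-β, the inducer of epithelial-mesenchymal transition (EMT) in these cells, and on Etv4 and Etv5. Each group is represented by 1 list of peaks from 1 cell line, so no spread between replicates was available and no p-value is given. The 95% Wilson intervals given with shares cover counting error only, and regions are not replicates of a condition. The siControl TGF-β library enters all 3 comparisons.

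Most vertebrate promoters overlap CpG islands, stay unmethylated and are open in nearly every tissue. Promoters without an island are commonly methylated at their few CpGs in tissues that do not use them, often carry a TATA box, and tend to drive tissue-specific or inducible genes such as those for keratins, milk proteins, proteases and cytokines. Opening of such a promoter therefore usually depends on factors that bind it in the particular cell type, among them AP-1 (dimers of Fos and Jun proteins) and ETS factors, both downstream of Ras signalling.

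As examples of these regions, 11 stretches of mm10 are printed for genes that lead the results below. They are read 5′ to 3′ on the strand of the gene, around the strongest summit and without bases of untranslated exons. The 500 bp around the nearest TSS of Src and of Zmym6 are themselves CpG-rich. Capitals mark matches to AP-1 (TGACTCA or TGAGTCA), ETS (CCGGAAG or CAGGAAG) or the TATA box (TATAAA) on either strand. Sprr1a, a cornified envelope protein gene (chr3:92485925-92486074, minus strand), and S100a3, a calcium-binding protein gene (chr3:90587017-90587166, plus strand), each hold 2 AP-1 matches. Mmp13, a collagenase gene (chr9:7272406-7272513, plus strand, shown as a known AP-1 target and picked after its values were seen), holds an AP-1 match and a TATA box. Src (chr2:157457574-157457723, plus strand) had the largest rise with TGF-β and Nod2 (chr8:88647211-88647314, plus strand) the largest fall. Slfn3 (chr11:83192196-83192345, plus strand) was the strongest member found with TGF-β alone and Zmym6 (chr4:127076960-127077109, plus strand) the strongest found with TGF-β and with both siRNA sets but not in untreated cells. Mfsd10 (chr5:34637213-34637286, minus strand) led the members found in untreated cells alone, and Hsd17b6 (chr10:128008375-128008524, minus strand) those called in every library except siControl TGF-β. H2-Q4, a class I MHC gene (chr17:35379457-35379606, plus strand), and Oasl1, an interferon-induced gene (chr5:114922402-114922551, plus strand), had some of the highest signals in all 4 libraries.
Sprr1a: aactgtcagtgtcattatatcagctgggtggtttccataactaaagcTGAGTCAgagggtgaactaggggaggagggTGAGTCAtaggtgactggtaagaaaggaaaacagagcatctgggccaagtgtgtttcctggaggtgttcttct
S100a3: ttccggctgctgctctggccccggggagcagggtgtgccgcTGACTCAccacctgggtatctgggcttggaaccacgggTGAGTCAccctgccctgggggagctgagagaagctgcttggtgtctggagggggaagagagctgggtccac
Mmp13: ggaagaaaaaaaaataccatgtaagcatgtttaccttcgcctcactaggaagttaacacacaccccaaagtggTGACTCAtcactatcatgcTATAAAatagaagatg
Src: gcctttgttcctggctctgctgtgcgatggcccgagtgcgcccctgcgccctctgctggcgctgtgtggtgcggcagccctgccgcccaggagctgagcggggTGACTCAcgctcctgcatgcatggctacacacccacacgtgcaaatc
Nod2: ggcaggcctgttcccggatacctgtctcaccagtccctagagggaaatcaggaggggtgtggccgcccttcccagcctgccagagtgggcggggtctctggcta
Slfn3: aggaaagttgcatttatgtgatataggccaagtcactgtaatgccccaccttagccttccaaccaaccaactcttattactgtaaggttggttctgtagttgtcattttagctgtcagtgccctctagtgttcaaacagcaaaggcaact
Zmym6: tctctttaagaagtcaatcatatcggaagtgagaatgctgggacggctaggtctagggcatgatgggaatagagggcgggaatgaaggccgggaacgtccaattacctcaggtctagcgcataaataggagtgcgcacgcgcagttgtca
Mfsd10: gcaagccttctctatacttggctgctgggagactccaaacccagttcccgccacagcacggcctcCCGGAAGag
Hsd17b6: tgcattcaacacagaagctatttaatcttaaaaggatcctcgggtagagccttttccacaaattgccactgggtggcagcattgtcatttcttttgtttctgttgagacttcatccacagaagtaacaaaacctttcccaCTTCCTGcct
H2-Q4: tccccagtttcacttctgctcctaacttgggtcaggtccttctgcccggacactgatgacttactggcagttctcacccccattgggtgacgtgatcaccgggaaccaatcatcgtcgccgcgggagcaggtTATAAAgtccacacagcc
Oasl1: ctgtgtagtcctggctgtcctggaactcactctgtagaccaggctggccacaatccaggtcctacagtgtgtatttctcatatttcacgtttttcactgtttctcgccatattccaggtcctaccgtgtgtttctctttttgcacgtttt

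The lists held 22247 peaks in the untreated library, 28754 with siControl TGF-β, 22516 with set 1 and 14925 with set 2, at estimated depths of 15.3, 16.3, 17.3 and 20.7 M reads. The longest list was therefore not the deepest library, and the deepest gave the shortest list. Peak calls in members rested on 11 to 189 fragments at the summit, with library medians of 22 to 24.5 fragments. A member without a call had a summit below the threshold of the caller, and its level is not in the lists. Of 7 mammary epithelial marker genes 6 had a region within 2 kb of a TSS in at least 1 library (Krt8, Krt14, Krt18, Epcam, Cdh1 and Cldn4, but not Krt5), against 0 of 5 immune, 0 of 3 endothelial and 0 of 3 adipocyte markers, 1 of 3 hepatocyte markers (Apoa1) and 2 of 4 fibroblast markers (Col1a1 and Pdgfra).

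CpG-poor promoters were seldom open at their annotated start. Of 19800 CpG-poor autosomal protein-coding TSSs, 7.63% (7.26 to 8.00) had a peak within 250 bp in the untreated library, 8.36% (7.99 to 8.76) with TGF-β, 7.02% (6.67 to 7.38) with set 1 and 5.38% (5.07 to 5.70) with set 2. The same shares were 51.0%, 52.9%, 48.0% and 39.1% of 19799 CpG-rich TSSs. Genes with a member made up 12.2% of 20780 autosomal protein-coding gene symbols. Among them were 18 of 1455 odorant and vomeronasal receptor genes (1.24%), which are CpG-poor as a rule and used in sensory neurons.

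The members were called in 66.4% (64.6 to 68.1) in the untreated library, 79.2% (77.7 to 80.7) with TGF-β, 62.5% (60.7 to 64.3) with set 1 and 42.4% (40.6 to 44.2) with set 2. Over all regions these shares were 62.0%, 80.2%, 62.8% and 41.6%, so the members were near them except in the untreated library. In all 4 libraries 856 members were called, which is 29.7% (28.0 to 31.4) against 29.7% of all regions. This share was below the 53.7% (52.5 to 54.95) of CpG-rich promoters and above the 23.2% (22.7 to 23.7) of distal regions, with intervals that did not overlap. A further 842 members (29.2%, against 31.3% of all regions) were called in 1 library. Of these 416 were called with siControl TGF-β alone (14.42% against 16.005%), 225 in untreated cells alone (7.80% against 7.70%), 148 with set 1 alone (5.13% against 5.78%) and 53 with set 2 alone (1.84% against 1.78%), all near the shares of all regions.

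**Figure D1:**
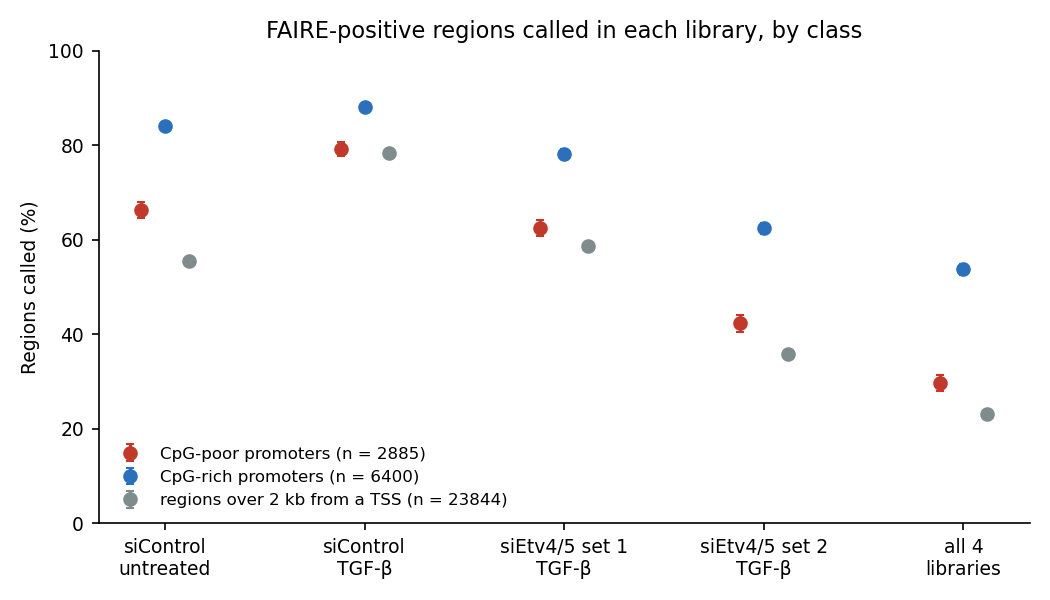
Share of regions called in each library and in all 4 (y axis, percent) for CpG-poor promoters, CpG-rich promoters and distal regions, with 95% Wilson intervals, some smaller than the points. In each library the CpG-poor promoters lie below the CpG-rich ones, and with TGF-β their 79.2% is close to the 78.3% of distal regions.

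The rule joins promoters of different composition. Both limits were met by 995 members, 1652 were admitted by their CpG ratio alone and 238 by their GC content alone. Members that met both were called in all 4 libraries in 19.9% (17.5 to 22.5), those admitted by CpG ratio alone in 33.7% (31.5 to 36.03) and those by GC content alone in 42.4% (36.3 to 48.8). Across all promoter regions of protein-coding genes the share called in all 4 rose with the CpG ratio, from 20.8% (17.7 to 24.2) below a ratio of 0.2 to 42.9% (39.1 to 46.8) between 0.5 and 0.6, 48.3% (45.5 to 51.2) between 0.6 and 0.7 and 54.9% (53.2 to 56.5) from 0.8 on. The limit of 0.6 thus lies on a gradient, and the regions on both of its sides differed less than the members did among themselves.

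Position relative to the TSS divided the members further. The middle lay within 250 bp of the TSS in 1194 members (41.4%), of which 970 were upstream, and 1887 members in all were upstream of their TSS. The 500 bp around the nearest TSS were themselves CpG-rich for 1100 members and CpG-poor for 1785. Among genes named below, the nearest TSS was CpG-rich for Src, Mmp11, Agap3, Aida, Aph1a, Zmym6, Ext2 and Adamts17, among others. The middle was outside genes in 1255 members, in an intron in 1218, in an untranslated exon in 315, in another exon in 53 and in coding sequence in 44. Members within 250 bp were called in all 4 libraries in 41.4% (38.6 to 44.2) and those beyond in 21.4% (19.5 to 23.4).

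AP-1 and ETS matches followed position in opposite directions. An AP-1 match was present in the 500 bp of 26.2% (24.6 to 27.8) of members, between the 4.95% (4.45 to 5.51) of CpG-rich promoters and the 46.5% (45.9 to 47.2) of distal regions. It was found in 15.6% (13.42 to 17.98) of members up to 250 bp upstream of the TSS and in 37.9% (33.4 to 42.7) of those more than 1000 bp upstream. CpG-poor TSSs without a peak had it in 8.22% (7.82 to 8.63), and all annotated protein-coding TSSs in 6.15% (5.92 to 6.39) of windows of this length. The matches were central, with 12.6% of members holding one in the 100 bp before the middle and 1.25% in the 100 bp at the upstream edge of a 1 kb window. An ETS match was present in 32.5% (30.8 to 34.2) of members, and in 44.2% (37.8 to 50.7) of those up to 250 bp downstream of the TSS against 27.6% (23.5 to 32.1) of those more than 1000 bp downstream. All protein-coding TSSs had it in 31.1% (30.6 to 31.5), and CpG-poor TSSs without a peak in 25.5% (24.9 to 26.1). A longer ETS word, CCGGAAGT, was in 2.91% (2.36 to 3.59) of members and 13.3% (12.5 to 14.1) of CpG-rich promoters. The TATAAA word was in 17.7% (16.3 to 19.1) of members and 15.3% (14.9 to 15.7) of all TSS windows, and the GC box (GGGCGGG) in 24.2% (22.7 to 25.8) against 40.7% (40.2 to 41.2). Against CpG-poor TSSs without a peak the order was the opposite, with TATAAA in 26.1% (25.5 to 26.8) and the GC box in 12.1% (11.7 to 12.6) of them. Members within 250 bp of the TSS had TATAAA in 14.1% (12.2 to 16.2), and those beyond in 20.2% (18.4 to 22.2). CCGGAAG, CCGGAAGT and the GC box each contain a CpG. Members were chosen for a low CpG ratio or GC content in the same 500 bp. The rule itself thus favours lower shares of these words in members than in CpG-rich windows. A match describes the sequence and does not show that a factor was bound.

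**Figure D2:**
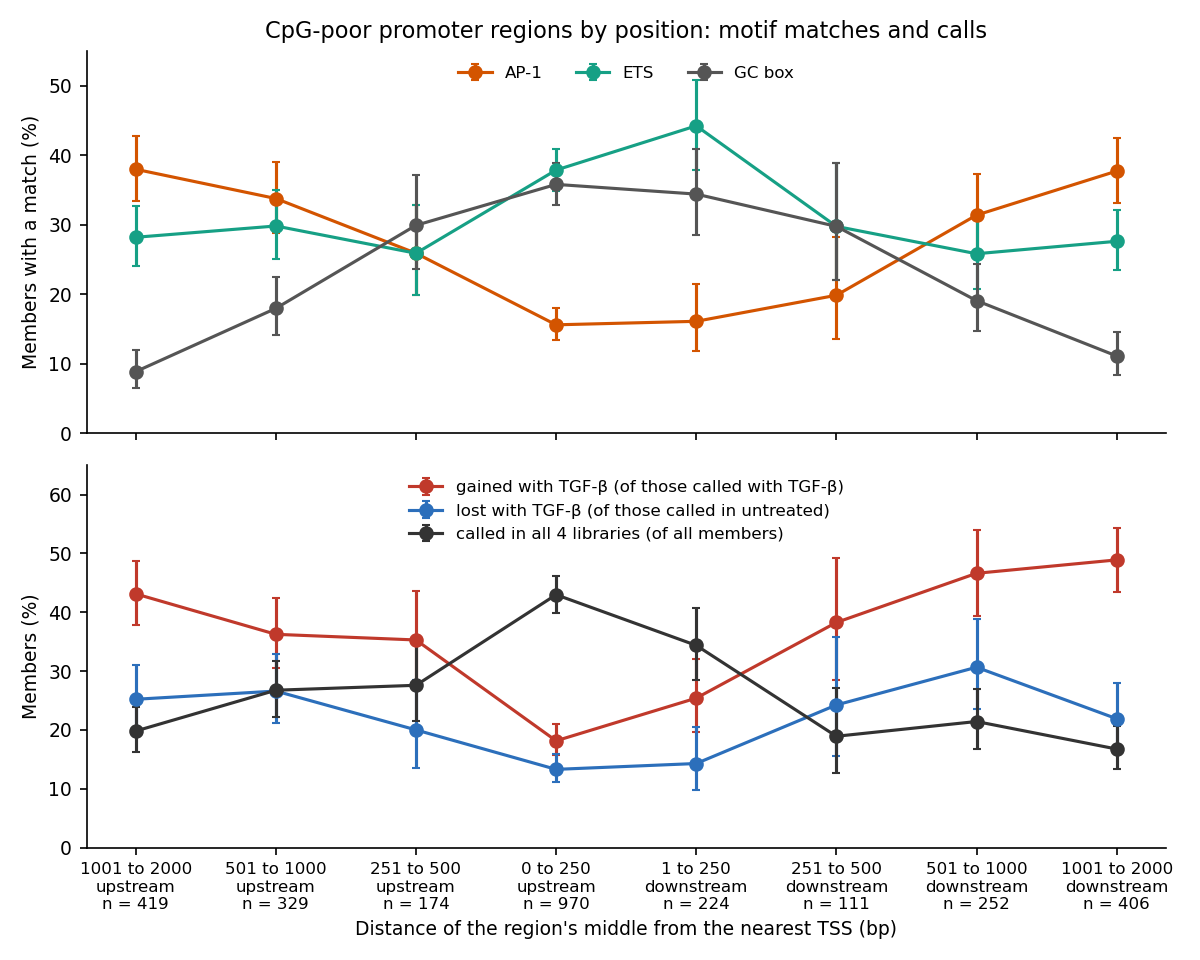
Members in 8 bins of distance from the nearest TSS (x axis, upstream to downstream), with 95% Wilson intervals. The upper plot gives the percent with an AP-1, ETS or GC box match and the lower plot the percent gained with TGF-β, lost with TGF-β and called in all 4 libraries. AP-1 matches and gained calls are lowest beside the TSS (15.6% and 18.1% up to 250 bp upstream), where the share called in all 4 is highest (43.0%).

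Members with a high signal in every library were picked by that signal and are given as a description. Ranked by the lowest of their 4 fold enrichments (summit signal over local background, as the authors give it), the first 8 genes were Gm10722, Oasl1, Aida, Ifi204, Aph1a, Gm6034, Med24 and Hoga1. The Oasl1 member, 721 bp upstream, had fold enrichments of 17.99, 16.1, 14.5 and 17.5 in the order untreated, TGF-β, set 1 and set 2, an order kept for all values that follow. At Ifi204, a gene of the interferon-inducible p200 family, the member 133 bp upstream had 15.8, 19.8, 13.7 and 13.2. The member 143 bp upstream of Aph1a, a γ-secretase subunit, had 13.01, 14.2, 15.9 and 13.5, and the one 19 bp upstream of Med24, a Mediator subunit, 14.1, 18.1, 15.0 and 12.02. Ifi204 and Med24 were highest with siControl TGF-β and had 0.548 times (0.338 to 0.879) and 0.509 times (0.313 to 0.816) as many depth-scaled fragments with set 2. Such a fall was not particular to these genes. On this scale the median log2 ratio of set 2 over siControl TGF-β was -0.70 over the 856 members called in every library. It was -0.71 over all regions called in every library. Only 2.92% of those members and 2.74% of those regions were higher with set 2. Aph1a was highest with set 1 and Oasl1 in untreated cells. The Oasl1 window is 58.4% repeat-masked, and the windows of Ifi204, Aph1a and Med24 are masked in 7.4%, 9.2% and 4.4%.

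The first of these genes, Gm10722, belongs to an array at the start of chromosome 9 (chr9:2999962-3036511), where 15 members lie at the gene models Gm10722, Gm10720, Gm10719, Gm10718, Gm10717 and Gm10715. Their windows are AT-rich, with GC contents of 33.2 to 36%, and repeat-masked with a median of 94.0%. The strongest had 132, 135, 142 and 149 fragments, and 10 of the 15 were called in all 4 libraries. Reads in such an array can come from many near-identical copies, so the values are not those of 1 promoter. Without these 15 members the share called in all 4 libraries was 29.5%.

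With TGF-β, 741 of the 2286 members called in siControl TGF-β were not called in untreated cells, which is 32.4% (30.5 to 34.4) against 36.8% of all regions. Of the 1915 members called in untreated cells, 370 were not called with TGF-β, or 19.3% (17.6 to 21.2) against 18.3% of all regions. Gained shares were 13.2% (12.4 to 14.1) in CpG-rich promoters and 44.7% (44.0 to 45.4) in distal regions. When each list was cut to the length of the shortest by q-value, 30.1% of members were gained and 35.7% lost. Such a cut makes gains and losses nearly equal over all regions, where both were 34.3%. The order of the classes in gains stayed, with 14.5% gained in CpG-rich promoters and 44.6% in distal regions.

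Changes of call were most frequent among weak members. Of members with under 20 fragments in siControl TGF-β, 54.6% (50.1 to 59.0) were gained, of those with 25 to 29 fragments 26.6% (22.97 to 30.5), and of those with 40 or more 3.65% (1.57 to 8.26). At 25 to 29 fragments the CpG-rich promoters had 9.44% (7.97 to 11.1) and distal regions 32.5% (30.9 to 34.0), so the members lay between both classes in this band of signal. For losses at 25 to 29 fragments the members had 9.82% (7.24 to 13.2), CpG-rich promoters 3.37% (2.54 to 4.47) and distal regions 6.62% (5.59 to 7.82).

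**Figure D3:**
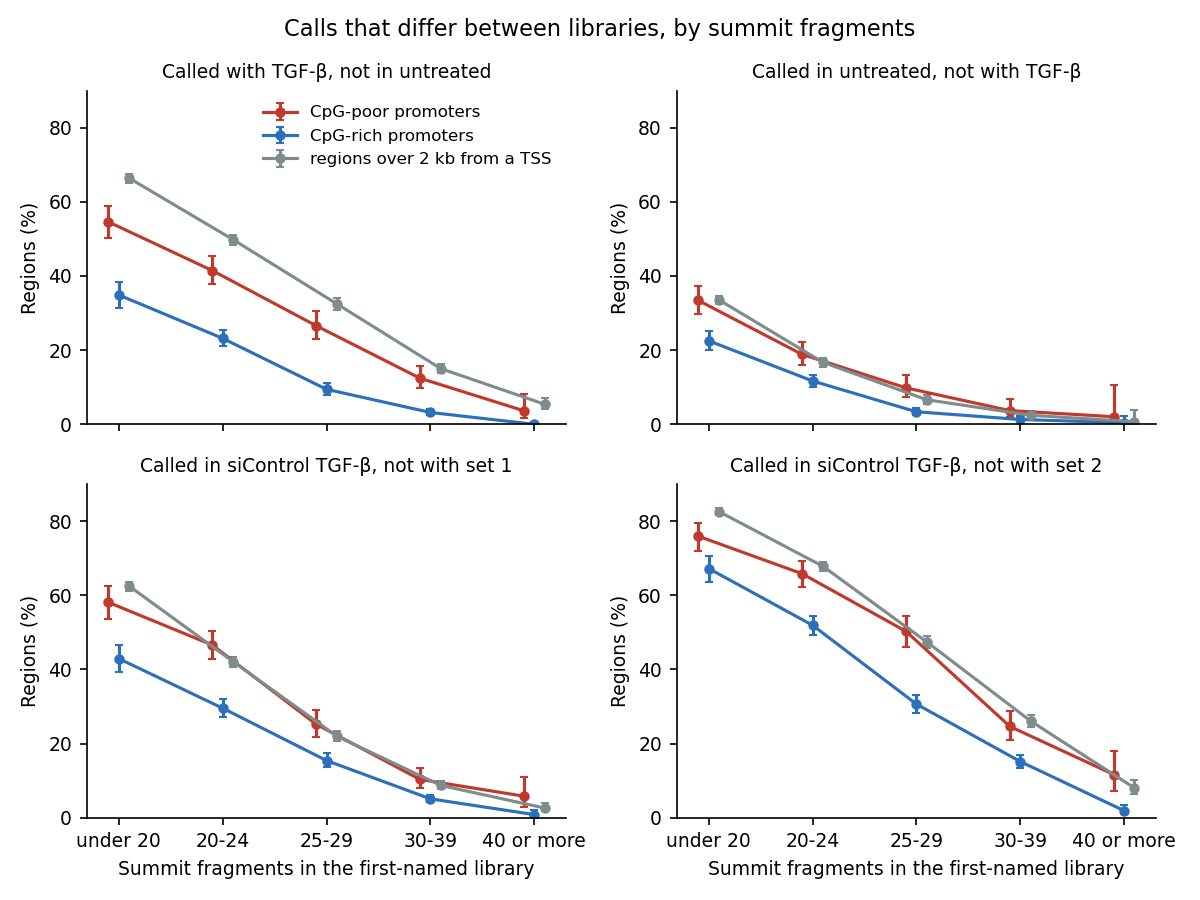
Percent of regions of the first-named library that were not called in the second (y axis) by the number of fragments at the summit (x axis), for the 4 comparisons of calls and 3 classes, with 95% Wilson intervals. In every class the share falls as fragments increase, and for gains the CpG-poor promoters lie between the other two classes.

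Taken over all positions, calls gained and calls lost with TGF-β both differed between members with and without an AP-1 match. Of members with a match, 40.7% (37.0 to 44.5) were gained and 10.7% (8.15 to 13.9) lost, against 29.05% (26.9 to 31.3) and 21.9% (19.8 to 24.1) of those without. Split by position, the intervals for gains overlapped, with 46.5% (42.1 to 50.9) against 40.1% (36.7 to 43.6) beyond 250 bp and 23.2% (17.4 to 30.2) against 18.8% (16.3 to 21.5) within 250 bp. Overlap of intervals does not show that the shares were equal. Losses differed in the members beyond 250 bp, with 10.4% (7.45 to 14.43) against 31.2% (27.9 to 34.8), and their intervals overlapped within 250 bp, with 11.3% (7.06 to 17.5) against 13.9% (11.6 to 16.43). At 20 to 24 summit fragments in untreated cells, 8.15% (4.61 to 14) of members with a match and 21.8% (18.4 to 25.7) of those without were lost. At 20 to 24 fragments in siControl TGF-β, 54.6% (47.4 to 61.6) of members with a match and 36.3% (32.1 to 40.8) of those without were gained. In the other bands gains were also higher with a match, with overlapping intervals. These bands were not split by position. Distal regions showed the same losses, 10.8% (10.0 to 11.6) with a match and 31.2% (30.1 to 32.3) without, but nearly equal gains of 43.9% (42.9 to 44.9) and 45.6% (44.6 to 46.7). At equal list length 42.8% (37.6 to 48.2) of members with a match and 25.2% (22.5 to 28.2) of those without were gained, and the intervals for losses overlapped, with 29% (23.9 to 34.7) and 37.5% (34.6 to 40.4).

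**Figure D4:**
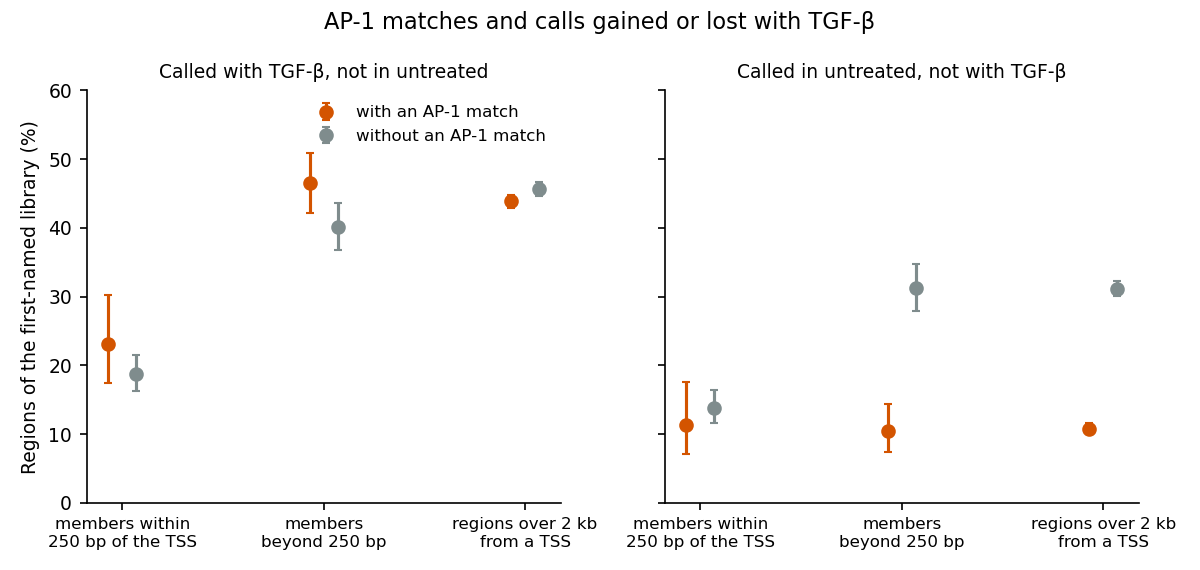
Percent of regions gained (left) and lost (right) with TGF-β, with and without an AP-1 match, for members within and beyond 250 bp of the TSS and for distal regions, with 95% Wilson intervals. Losses are near 11% wherever a match is present and reach 31.2% without one, except in members within 250 bp.

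At the 856 members called in all 4 libraries the change of level with TGF-β was small. The median log2 ratio of fold enrichment was 0.12 (0.10 to 0.15, a 95% order-statistic interval over members), beside 0.15 (0.14 to 0.15) for all regions. It exceeded 1.5 times upward in 57 members, 6.66% against 6.53% of all regions, and downward in 12, 1.40% against 0.826%. The 6 largest rises were at Src, Mmp11, Smim3, Glrx2, 2810408A11Rik and Zfp64, of which the first 4 hold an AP-1 match. For Src, the tyrosine kinase proto-oncogene, the intronic member 568 bp downstream had fold enrichments of 5.86, 12.8, 10.7 and 6.54. In summit fragments scaled to library depth the TGF-β library was 2.39 times the untreated one, with an exact counting interval of 1.15 to 5.32. Mmp11, the gene of a matrix metalloproteinase, had 6.84, 14.37, 10.3 and 6.77 at 1982 bp downstream, a ratio of 2.46 (1.26 to 5.07). Both were picked for a high value in siControl TGF-β, which favours lower values in the other libraries. The set 1 ratios over siControl TGF-β, 0.807 (0.448 to 1.44) for Src and 0.609 (0.340 to 1.07) for Mmp11, had intervals that include 1. The 6 largest falls were at Nod2, Sumf2, Agap3, Nrde2, Slc39a11 and Tmcc2. The member 3 bp upstream of Nod2, an intracellular sensor of bacterial peptidoglycan, had 15.6, 8.06, 8.97 and 7.79, a ratio of 0.483 (0.258 to 0.876), and stayed near its TGF-β level with both sets. At Agap3 the member 1840 bp downstream had 12.9, 7.47, 10.1 and 9.06, a ratio of 0.456 (0.240 to 0.837). These 12 are the extremes of 856 members, their intervals are not adjusted for that choice, and 3 of the 6 falls and 2 of the 6 rises have intervals that include 1.

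With the Etv4/5 siRNAs fewer members were called. Of the 2286 members called in siControl TGF-β, 778 were absent with set 1, or 34.0% (32.1 to 36) against 33.5% of all regions, and 1199 with set 2, or 52.4% (50.4 to 54.5) against 53.4%. CpG-rich promoters had 17.9% (16.9 to 18.9) and 33.0% (31.8 to 34.3), and distal regions 38.2% (37.5 to 38.9) and 59.8% (59.1 to 60.5). At equal list length the members' shares were 32.2% and 34.7%, with overlapping intervals (29.6 to 34.9 and 32.1 to 37.4). Of the 741 gained members 416 were absent with both sets, 56.1% (52.5 to 59.7) against 54.1% of all gained regions, and 93 were called with both. Of the 370 lost members 29 were called again with both sets, 7.84% (5.51 to 11.03) against 7.06% of all lost regions. These sets of calls share the siControl TGF-β library, so a summit that was high or low in it by counting error alone enters both counts.

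Absence with the siRNAs was set against ETS matches. With set 1 the shares were 29.7% (26.6 to 33.0) with a match and 36.2% (33.9 to 38.7) without, and with set 2 they were 45.3% (41.9 to 48.9) and 56.1% (53.6 to 58.6). Distal regions had 35.8% (34.5 to 37.2) and 39.1% (38.3 to 39.97) with set 1. Split by position, the intervals for set 1 overlapped, with 22.8% (18.95 to 27.1) and 29.6% (26.1 to 33.3) within 250 bp of the TSS and 37.3% (32.5 to 42.3) and 40.7% (37.5 to 43.9) beyond. For set 2 they overlapped within 250 bp, with 36.6% (32.1 to 41.4) and 45.2% (41.3 to 49.2), and not beyond, with 54.9% (49.8 to 59.9) and 63.3% (60.1 to 66.4). At equal list length the intervals of members with and without an ETS match overlapped for set 2, with 30.7% (26.5 to 35.2) and 36.9% (33.6 to 40.3), and not for set 1, with 26.0% (22.1 to 30.4) and 35.6% (32.3 to 39). Members with and without an AP-1 match had overlapping shares, with 34.6% (31.1 to 38.4) and 33.8% (31.5 to 36.1) absent with set 1.

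At the 856 members called in all 4 libraries the median log2 ratio over siControl TGF-β was -0.18 (-0.21 to -0.15) with set 1 and -0.39 (-0.41 to -0.37) with set 2, beside -0.18 and -0.41 for all regions. Members lower by over 1.5 times numbered 56 with set 1, 6.54% against 7.16% of all regions, and 207 with set 2, 24.2% against 26.8%. On the scale of fragments over depth these counts were 133 (15.5%, against 16.2% of all regions) and 538 (62.9% against 63.8%), with medians of -0.27 and -0.70. Higher by over 1.5 times were 4 members with set 1, 0.467% against 0.389%, and 0 with set 2 against 0.104% of all regions. With both sets 610 members were lower (71.3% against 70.6% of all regions) and 52 higher (6.07% against 6.04%). By that fold 35 were lower with both sets, 4.09% against 4.70% of all regions, in comparisons that share the siControl TGF-β library. The largest falls were at Mrps9, Zfp930, Dusp14, Tmc8 and Cyb561d1. For Mrps9, a mitochondrial ribosomal protein gene, the member 31 bp upstream had fold enrichments of 11.5, 16.7, 8.01 and 8.67. Dusp14, a dual-specificity phosphatase gene, had 8.08, 10.6, 5.58 and 5.89 at 76 bp upstream. The choice of these 5 fixes that siControl TGF-β exceeded both siRNA libraries, and it favours a lower untreated value as well. The untreated library was below siControl TGF-β at each of the 5, as it was at 67.9% of the 856 members. The largest rises with both sets were at Ext2, Adamts17, Nrde2, Mbnl2 and Agap3. Adamts17, a secreted metalloprotease gene, had 9.77, 8.81, 13.404 and 11.3 at 130 bp upstream, and Ext2, a heparan sulfate polymerase gene, 7.82, 7.88, 10.3 and 10.5 at 1159 bp upstream. The counting interval of the fragment ratio included 1 for each of these 5 genes in both sets, and 0 members were higher by over 1.5 times with both sets, against 0.038% of all regions.

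Members called in part of the libraries were weaker. The strongest found with siControl TGF-β alone were at Slfn3, Tubb2b, Aif1l, Pkp3 and Zfp651, with fold enrichments of 11.8, 11.5, 10.8, 10.7 and 10.5 from 30, 28, 23, 24 and 23 fragments. Tubb2b encodes a β-tubulin and Pkp3 the desmosomal protein plakophilin 3. Those found with TGF-β and with both sets but not in untreated cells were led by Zmym6, Zfp362, Zfhx2, Olfr457 and Efna2. The member 332 bp upstream of Zmym6 had 12.1 with siControl TGF-β, 9.35 with set 1 and 8.00 with set 2, and the one 1004 bp downstream of Zfp362 had 11.9, 13.1 and 10.9. The strongest found in untreated cells alone were at Mfsd10, Tmc5, Plbd2, Zfp385a and Selenow, with fold enrichments of 11.6, 11.6, 10.96, 10.8 and 10.8. Members called in every library except siControl TGF-β were led by Hsd17b6, Gadd45gip1, Aim2, Vps39 and Alkbh8. At Aim2, a cytosolic DNA sensor gene, the member 1200 bp downstream had 10.7 in untreated cells, 8.39 with set 1 and 12.2 with set 2. Called with both sets and in neither siControl library were 28 members, 0.971% against 0.841% of all regions, led by Samd5, Lrrfip2, Tspan9, Gm11032 and Vav2.

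In 15 gene lists drawn up for this tissue and treatment, the share of genes with a member differed. S100 and annexin genes had 15 of 26 with a member, integrin, laminin and hemidesmosome genes 15 of 35, interferon and antigen presentation genes 18 of 44, extracellular proteases and inhibitors 17 of 43, metabolic and stress enzymes 16 of 43, and cytokines, chemokines and receptors 18 of 55. Broadly expressed control genes had 7 of 25, TGF-β signalling and response genes 10 of 36, epithelial adhesion, junction and identity genes 14 of 53, milk and secretory genes 7 of 29, Ras-ERK, AP-1 and immediate early genes 11 of 46, cytoskeleton and motility genes 9 of 39, keratin and cornified envelope genes 8 of 39 and mesenchymal and matrix genes 8 of 41. Markers of other cell types had 2 of 30, Cd68 and Apoa1. The background of 12.2% is over all genes, and a gene with many annotated TSSs has more places for a member. For the calls in the lists below, 36.8% of all regions were gained, 18.3% lost and 29.7% called in all 4 libraries. Over all regions 33.5% were absent with set 1 and 53.4% with set 2. The lists hold few members, and several members of 1 gene are counted separately.

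Interferon and antigen presentation genes held 22 members, of which 8 were called in all 4 libraries (36.4%), 3 of 15 were gained with TGF-β and 0 of 12 lost. A pair of interferon response half-sites (GAAANNGAA, a word added after the values were seen) was present in 10 of the 22, against 15.355% of all members and 12.6% of all TSS windows. It was in 17.3% of CpG-poor TSSs without a peak and 16.1% of distal regions, so members as a whole were not above these. H2-Q4 had fold enrichments of 14.8, 20.6, 13.9 and 11.5 at 98 bp upstream, in the stretch printed above with its TATA box. B2m, the light chain of class I MHC, had 12.4, 10.3, 9.83 and 8.59 at 112 bp upstream. Bst2, the antiviral protein tetherin, had 10.5, 14.7, 10.7 and 6.85 at 98 bp upstream, and Ifi35 had 12.7, 11.5, 11.4 and 8.18 at 27 bp upstream. At 84 bp downstream, Irf9, a subunit of the interferon-activated factor ISGF3, had 9.77, 9.501, 8.04 and 7.60. Irf7, its relative that drives interferon genes, was called at 12 bp upstream with siControl TGF-β (10.5) and set 1 (8.92). Ifit1 and Ifi44 were called with set 1 alone, at 7.41 and 6.96, and Gbp3 with set 2 alone, at 7.76.

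Extracellular proteases and inhibitors held 18 members, 6 of them called in all 4 libraries, with 6 of 15 gained and 2 of 11 lost with TGF-β. AP-1 matches were in 9 of the 18. Plat, the tissue plasminogen activator, had fold enrichments of 10.97, 11.04, 7.78 and 8.35 at 135 bp upstream and a further member called with siControl TGF-β alone at 1474 bp downstream. Serpinb5, the serpin maspin of epithelial cells, had 6.38, 9.79, 8.27 and 9.47 at 106 bp upstream. The stromelysin gene Mmp10 had 7.27, 6.41, 6.63 and 6.88 at 127 bp upstream. Mmp9, a gelatinase, was called with siControl TGF-β (7.80) and set 1 (8.75), 504 bp upstream. The Mmp13 member 78 bp upstream, printed above, was called in untreated cells alone, at 5.77 from 14 fragments, close to the fewest that gave a call.

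Keratin and cornified envelope genes, products of stratified and glandular epithelium, held 11 members, of which 9 had an AP-1 match and 5 the TATAAA word. Of 10 called with TGF-β 4 were gained, and of 6 called in untreated cells 0 were lost. Krt14, a basal keratin, had fold enrichments of 7.16, 10.4, 8.38 and 6.0 at 161 bp upstream, and Krt16 had 8.80, 10.96, 9.02 and 7.34 at 284 bp upstream. Sprr1a, with the AP-1 pair printed above, had 8.62, 8.86, 8.04 and 7.96. Second members of Krt14, Krt19 and Krt8 at 929, 1620 and 1002 bp upstream were each called with siControl TGF-β and not in untreated cells, and the one at Krt8 also with both sets. Epithelial adhesion, junction and identity genes held 19 members, 6 of them called in all 4 libraries. Of 13 called with TGF-β 4 were gained, and of 13 called in untreated cells 4 were lost (30.8%, against 18.3% of all regions). The epithelial transcription factor gene Elf3 had 8.71, 11.1, 7.91 and 6.62 at 29 bp upstream, and Jup, the gene of plakoglobin, 6.24, 6.57, 5.94 and 5.51 at 236 bp upstream. Tight junction genes differed, since Cldn4 had 4.81, 6.23 and 5.88 with no call in set 2, and Cldn3 was called in untreated cells alone, at 4.71.

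Cytokine, chemokine and receptor genes held 20 members, of which 3 were called in all 4 libraries, those of Cxcl10, Cxcl16 and Il1r1. Of 16 called with TGF-β 9 were gained, 7 were absent with set 1 and 12 with set 2. Of 11 called in untreated cells 4 were lost, and 10 of the 20 members had an AP-1 match. Il1r1, the interleukin-1 receptor, had fold enrichments of 9.53, 12.05, 8.49 and 9.08, and the chemokine gene Cxcl10 had 9.09, 8.35, 9.47 and 8.57. Il6 had a member 50 bp upstream called in untreated cells (8.39) and with set 1 (8.14), and another 244 bp upstream called in untreated cells (6.23), with siControl TGF-β (7.43) and with set 2 (8.48). Csf2, Tnf, Il15ra, Il24 and Tnfrsf1b were each called with siControl TGF-β alone, at 8.25, 8.89, 9.59, 7.12 and 9.39, and Il1rn and Il18r1 in untreated cells alone, at 8.99 and 7.001.

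**Figure D5:**
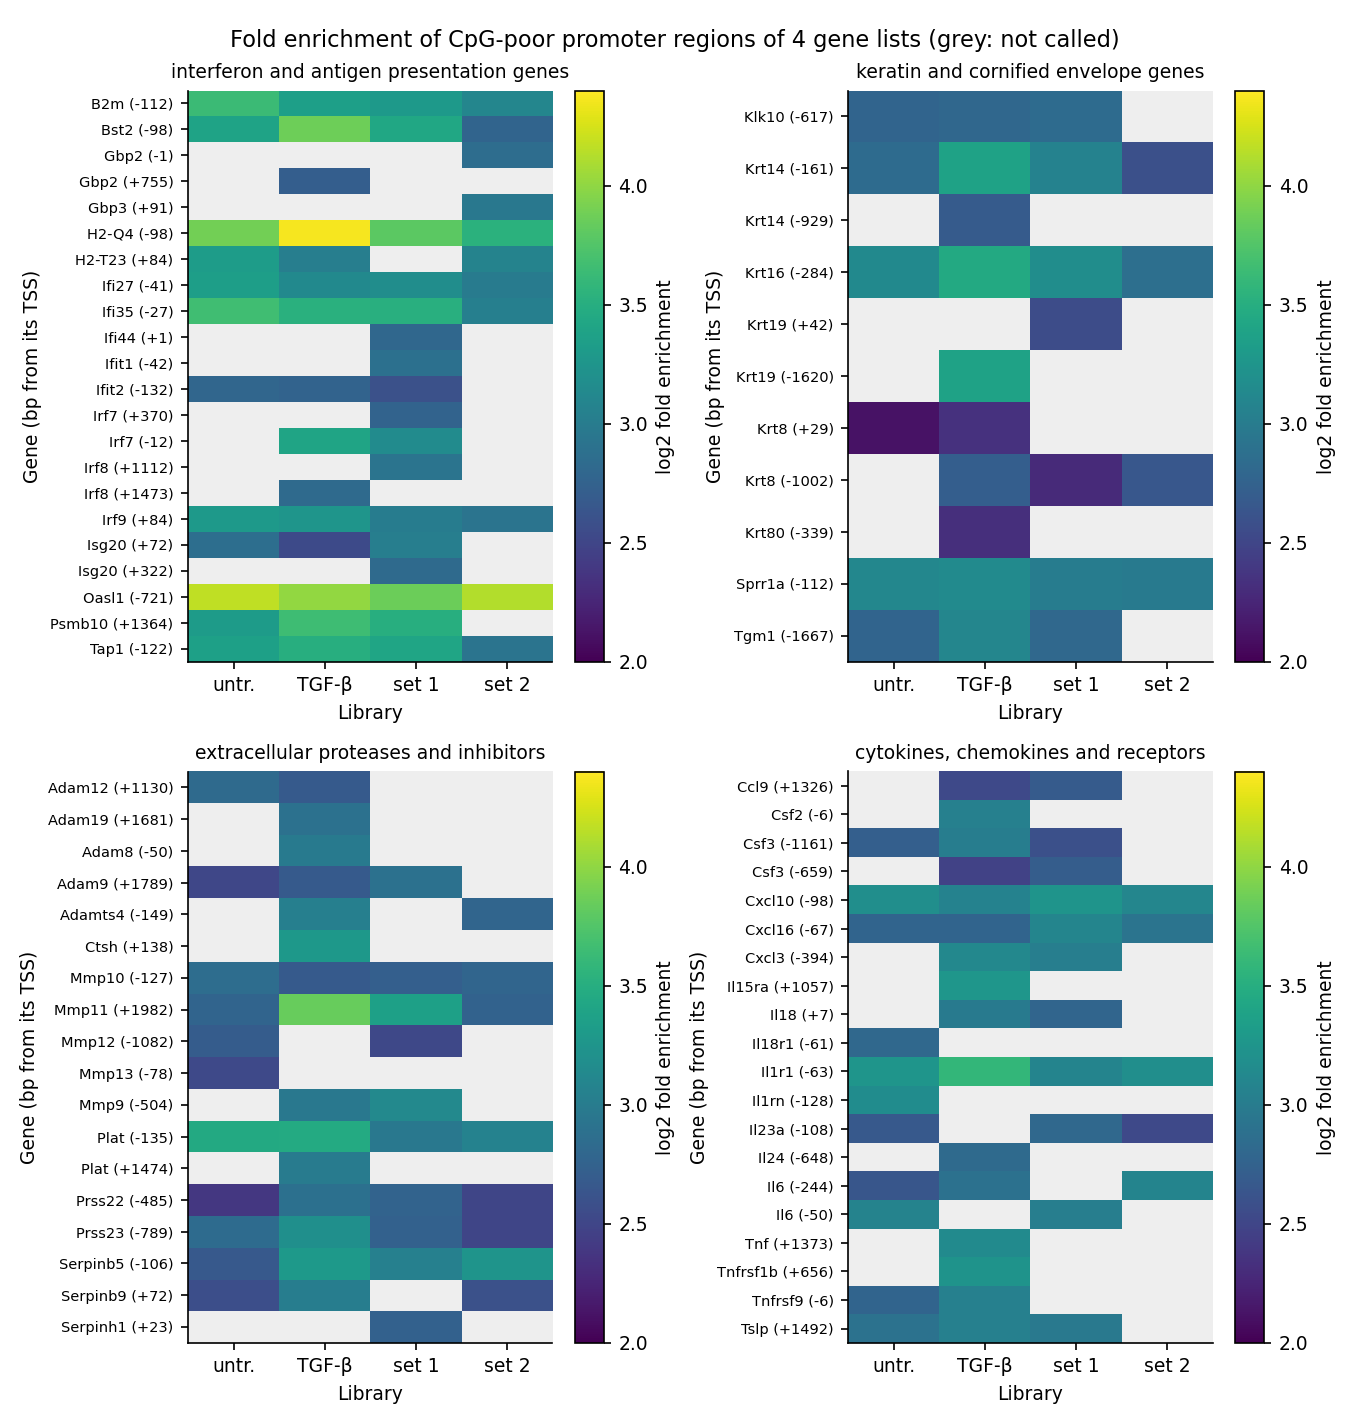
Log2 fold enrichment (colour scale) of each CpG-poor promoter region (rows, with gene and distance from its TSS in bp) in the 4 libraries (columns) for 4 gene lists, with grey for regions not called. Interferon and antigen presentation genes have 8 of 22 regions coloured in all 4 columns and the cytokine genes 3 of 20.

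Integrin, laminin and hemidesmosome genes, which anchor epithelium to its basement membrane, held 31 members, 3 of them called in all 4 libraries (9.68%). Of 23 called with TGF-β, 12 were gained, 13 were absent with set 1 and 19 with set 2. Over all regions these shares were 36.8%, 33.5% and 53.4%. Of 16 called in untreated cells 5 were lost, against 18.3% of all regions. Plec, the gene of the linker protein plectin, had 8 members between its alternative first exons, more than any other gene, of which 5, 6, 2 and 0 were called. Dst, the gene of a related linker, had 4 members, all called with TGF-β and 1 of them in each other library. Cytoskeleton and motility genes had 7 of 12 gained and 1 of 6 lost. The gained ones included 4 of the 5 members of Lmna, the gene of lamin A, all 5 of which hold an AP-1 match. The Lmna member at its TSS had fold enrichments of 8.24, 8.63 and 8.04 and was not called with set 2. S100 and annexin genes held 19 members with 8 of 15 gained and 2 of 9 lost. In the S100 cluster of chromosome 3, S100a14 had 8.63, 10.7, 8.49 and 8.04, the S100a3 member printed above 6.44, 7.83, 4.83 and 4.67, and S100a4, a marker of motile and fibroblastic cells, 5.79, 8.77, 9.75 and 7.44.

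Mesenchymal and matrix genes held 9 members and TGF-β signalling and response genes 12. Gained were 4 of 7 and 4 of 9, and lost were 1 of 4 and 2 of 7. Vim, the mesenchymal intermediate filament vimentin, had a member 340 bp upstream called with siControl TGF-β (6.02), set 1 (8.30) and set 2 (6.11) but not in untreated cells, and a second 1775 bp upstream with siControl TGF-β alone. Tpm2, a tropomyosin gene, had 6.13, 9.10, 8.42 and 6.82 at 926 bp downstream. Ccn2, the connective tissue growth factor gene, had 4.97, 5.17, 6.97 and 5.55, and Id1, a BMP target, had 8.09, 6.54 and 6.01 without a call in set 1. Ltbp2 and Tgfbr2 were called with siControl TGF-β alone, at 5.86 and 7.36, and Col1a1 with set 2 alone, at 6.39.

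Among Ras-ERK and immediate early genes, the targeted gene Etv4 had a member 15 bp upstream with fold enrichments of 9.60, 12.7, 10.8 and 8.39. Etv5 had one 1803 bp downstream, in an intron, with 7.87, 6.41 and 5.50 and no call in siControl TGF-β. Accessibility does not measure the knockdown, which was not analysed here. Ier3 had 9.82, 8.25, 6.28 and 6.27 at 118 bp upstream and Fosl1, an AP-1 subunit, was called with siControl TGF-β (6.54) and set 2 (4.74). Of the members of metabolic and stress enzymes, 9 of 19 called with TGF-β were gained and 3 of 13 called in untreated cells were lost. Gstp1, a glutathione transferase, had 9.77, 14.03, 10.2 and 8.50, and Scd1, a fatty acid desaturase, 6.98, 11.1, 7.69 and 7.58 at 209 bp upstream. Of milk and secretory genes 0 of 9 members were called in all 4 libraries, 4 of 7 were gained and 1 of 4 was lost. The gained ones included those of Csn3, the κ-casein gene, at 9.94, and Xdh at 7.09, both with siControl TGF-β alone. Among the control genes 4 of 8 members were called in all 4, with Gapdh at 8.90, 8.68, 7.44 and 7.88 and Eef1a1 at 7.31, 7.75, 7.10 and 6.77.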

How the data were processed

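FAIRE-seq of 4 groups of EpRas cells was used as 1 deposited peak list per group. Per the study's methods, Ion Proton reads were trimmed to 36 bp, aligned to mm10 and passed to MACS2 at a q-value below 0.0001. The methods name bowtie2 and an earlier MACS2 release, whereas the submitters' processing notes name Bowtie and MACS2 2.1.0, and which made the lists is not settled here. The study describes 2 biological replicates, and whether each list pools them is not given in the sources used here. The lists deposited by the authors hold a score, the fold enrichment of the summit (a ratio over local background with a pseudocount of 1), the p-value on a −log10 scale, the q-value likewise as −log10, and the summit offset. The score was not used for any result.

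Peaks were merged, assigned to the nearest GENCODE M21 TSS and described by GC content and CpG observed/expected ratio in GRCm38. Annotated TSSs were classed by their own 500 bp. The number of fragments at a summit was solved from fold enrichment and p-value, and it met both within 0.001 on the log10 scale for 100% of peaks. Depth was estimated from the lowest local background, a genome of 1.87 Gb and the fragment length, so fragments scaled to depth (FPM) rest on that estimate. A region was called in a library if a peak of that library lay in it, gained if called with siControl TGF-β and not in untreated cells, lost in the opposite case, and absent if called with siControl TGF-β and not with the siRNA set. Ratios of level used members called in all 4 libraries. Python 3.11.15, numpy 2.4.6, pandas 2.3.3, scipy 1.17.1 and matplotlib 3.10.9 were used, and the recovery of fragments was tested on simulated data. No test of a condition was possible with 1 list a group.

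Named are the genes with the 8 highest lowest-of-4 fold enrichments, the 6 largest rises and 6 largest falls with TGF-β, the 5 largest changes in each direction with both sets, the 5 strongest members of each of 5 patterns of calls, and members of the gene lists. S100a4 and Itgb6 are each in 2 lists. The members, gene lists and motifs were chosen with earlier results of these data known.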

Additional observations from a re-analysis of the deposited data

How the results depend on the processing

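Of 75 recomputed values with an interval 43 moved by less than it, 32 moved by more and 0 changed sign. With each list cut to the length of the shortest, 2118 members were left, of which 26.1% were called in all 4 libraries, 30.1% were gained, 35.7% were lost, 34.7% were absent with set 2, 44.7% of gained members were absent with both sets, the median log2 ratio of set 2 was -0.44 and 34.3% held an ETS match. When a peak had to cover 50% of the region, 27.8% were called in all 4 and 54.8% absent with set 2. With GC content and CpG ratio both low, the 995 members had 19.9% called in all 4, 43.8% gained, 22.99% lost, 40.4% and 62.8% absent with sets 1 and 2, a median log2 ratio of 0.19 with TGF-β, 35.3% with AP-1 and 24.6% with ETS. Within 500 bp of the TSS, the 1479 members had 38.1%, 22.5%, 14.7%, 28.5% and 44.4% for the same calls, 17.2% with AP-1 and 36.8% with ETS. On the scale of fragments per M reads of estimated depth (FPM) the median log2 ratio was -0.27 with set 1 and -0.70 with set 2. With at least 25 fragments in both libraries it was 0.069 for TGF-β, whereas set 1 had -0.13 and set 2 -0.29. In a 300 bp window 24.4% held AP-1 and 24.8% ETS, and 2.91% held CCGGAAGT. A q-value limit of 1e-06 and leaving out the chromosome 9 array, a setting chosen after seeing the data, moved 0 of 12 values each. These settings left 2878 and 2870 of the 2885 members, so they could hardly move a value and say little about other limits. The cause of these shifts was not tested. No paired analysis was possible because each group has 1 list. The fewest fragments behind a call were 11 to 12, so a member of that strength cannot be told from one just below the threshold.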

Other observations

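RUNX and TEAD words and the CCAAT box were in shares of members between those of CpG-rich promoters and distal regions, and the E-box was not. The RUNX words TGTGGTT or TGCGGTT were in 13.6% (12.4 to 14.9) of members, 9.11% (8.43 to 9.84) of CpG-rich promoters, 18.6% (18.1 to 19.1) of distal regions and 9.68% (9.40 to 9.98) of all annotated protein-coding TSS windows. The TEAD words ACATTCC or GCATTCC, bound by the partners of YAP and TAZ, were in 15.0% (13.8 to 16.39), 7.89% (7.26 to 8.58), 19.4% (18.9 to 19.9) and 9.32% (9.03 to 9.61) of the same classes. The CCAAT box (CCAATCA or CCAATGG or CCAATGA or CCAATCG), bound by NF-Y, was in 23.4% (21.9 to 24.9), 33.7% (32.5 to 34.8), 15.8% (15.3 to 16.2) and 22.3% (21.9 to 22.7). The E-box of the EMT factors SNAI and ZEB (CAGGTG) was in 32.2% (30.6 to 34.0) of members, 27.8% (26.7 to 28.9) of CpG-rich promoters, 30.9% (30.3 to 31.5) of distal regions and 33.7% (33.2 to 34.2) of all TSS windows.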
